A study of Mus musculus with 48 samples.

Results

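The genes described here are 28 members of the cholesterol synthesis pathway and of its sterol-sensing control. They were chosen by name from a list, with earlier results of these data known. All 28 matched 1 gene each among the 46517 mouse genes counted. In the study, liver spheroids were grafted behind the cornea of mice, in the anterior chamber of the eye (ACE), where cells can be imaged in the living animal. Bulk RNA-seq was made from 5 explants, 3 naïve irises, 3 livers, 3 hepatocyte preparations and 2 samples of in vitro spheroids, each sequenced as 3 technical libraries. An explant held an engrafted spheroid together with adjoining iris, dissected 2 months after transplantation, so its RNA comes from both tissues. Hepatocyte preparations were liver cells enriched in hepatocytes by collagenase perfusion, and the in vitro spheroids were such cells aggregated in a medium with serum, part of which was then replaced repeatedly by serum-free medium. Both media held insulin and dexamethasone. The labels give the genotype WT Albino and the strain C57BL/6N to every sample, naming no transgene or drug. The paper lists its albino mice as Albino B6/J, a difference that was not settled. They give no age or sex, and do not say whether the samples of a group came from separate animals, so the p-values below measure the spread between samples, which may be technical.

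Cholesterol is built from acetyl-CoA by way of mevalonate, isoprenoids, squalene and lanosterol, and the liver makes much of the body's supply. When sterols in the endoplasmic reticulum run low, SCAP escorts the transcription factor SREBP2 to the Golgi for cleavage, and its active part switches on the genes of the pathway. INSIG1 and INSIG2 hold SCAP back when sterols are plentiful, while oxysterols activate LXR, which drives sterol export through ABCG5 and ABCG8.

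Promoter sequences are printed for members whose transcription or joint behaviour is followed below, namely the HMG-CoA synthase gene Hmgcs1, Srebf2 itself, the reductase gene Lbr and the stretch shared by Abcg5 and Abcg8. RefSeq windows on GRCm38.p6 of 250 bases before the start matched 24 of the 28 members. The printed stretches hold no annotated exon. Those of Lbr and Abcg8 each lie before 1 of several annotated starts, since the annotated genes reach past them, Lbr up to base 181843046 and Abcg8 from base 84676302. They lie at chr13:119690101-119690350 (Hmgcs1, plus strand), chr15:82147019-82147180 (Srebf2, plus strand), chr1:181842402-181842651 (Lbr, minus strand) and chr17:84683012-84683120, the 109 bases between the start of Abcg5 (minus strand) and the nearer, divergent one of the 2 RefSeq starts of Abcg8 (plus strand, as printed). In the first 3, capitals mark TCACCCCA, the inner letters of the sterol regulatory element to which SREBP binds, and CCAAT, on either strand. In the last they mark GATAA on either strand.
Hmgcs1: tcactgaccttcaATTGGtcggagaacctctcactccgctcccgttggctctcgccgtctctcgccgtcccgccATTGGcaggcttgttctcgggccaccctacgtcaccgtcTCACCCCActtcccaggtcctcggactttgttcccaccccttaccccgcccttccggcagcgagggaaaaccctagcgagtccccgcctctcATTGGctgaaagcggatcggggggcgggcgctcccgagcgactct
Srebf2: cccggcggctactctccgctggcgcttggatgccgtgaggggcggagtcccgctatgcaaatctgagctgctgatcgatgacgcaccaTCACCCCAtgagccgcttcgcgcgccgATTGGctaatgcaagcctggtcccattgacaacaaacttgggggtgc
Lbr: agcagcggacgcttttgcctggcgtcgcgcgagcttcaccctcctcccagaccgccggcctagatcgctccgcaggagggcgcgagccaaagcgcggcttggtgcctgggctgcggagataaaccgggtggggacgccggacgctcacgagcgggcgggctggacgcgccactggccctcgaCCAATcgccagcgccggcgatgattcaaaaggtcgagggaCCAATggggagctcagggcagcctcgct
Abcg5 and Abcg8: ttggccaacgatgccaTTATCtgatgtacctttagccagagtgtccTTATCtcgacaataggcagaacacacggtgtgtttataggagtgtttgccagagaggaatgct
The whole element of 10 letters was in 0 of the 24 members with a window and in 0.0814% of the 27025 genes with one. Its 8 inner letters, chosen after the windows had been read, occurred in 2 of these members, Hmgcs1 and Srebf2, and in 1.54% of those genes. CCAAT occurred in 21 of the 24 members with a window, against 37.5% of the 27025 genes with one. The stretch between Abcg5 and Abcg8 held 2 matches to GATAA, and 2 or more stood in 0.788% of all stretches of the same length before a start. GATAA was not among the motifs searched in every member, so the share does not show an enrichment. Such matches describe letters and do not show binding.

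Between 2718518 and 6789648 counts were assigned per sample, and each member had at least 6 counts in every sample. All 8 hepatocyte markers had counts in every sample of every group. Their summed level was 15185 to 15867 TPM (transcript counts per length, scaled to the same sum in every sample) in livers, 15696 to 18799 in hepatocyte preparations, 12788 to 13881 in in vitro spheroids, 5671 to 8190 in explants and 1693 to 1994 in irises. The naïve irises therefore held liver transcripts such as Alb, at 812 TPM on average. The 8 iris and eye markers summed to 6972 to 7201 TPM in irises and still to 341 to 364 TPM in livers. The source of these transcripts was not tested. Iris levels of members higher in livers, such as Abcg8, Abcg5, Ebp and Sc5d, may include such transcripts. The parts expected from iris below are read with this in mind. In bulk RNA, fewer cells of a type cannot be told apart from less RNA per cell.

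Levels of the 28 members ranged widely. In livers, Sc5d, encoding lathosterol oxidase near the end of the pathway, had the highest level at 835 ± 87.5 TPM (SD, n = 3), followed by Hmgcs1, the HMG-CoA synthase gene, at 464 ± 87.0 TPM and Ebp, the sterol isomerase gene, at 441 ± 41.5 TPM. Mylip, encoding the LXR-induced ubiquitin ligase IDOL, was lowest at 15.4 ± 3.03 TPM. Transcripts of the same sterol enzymes were also found in the iris samples, where Hmgcs1 led with 456 ± 71.0 TPM (n = 3). The summed level of the 20 synthesis enzymes was 2626 ± 216 TPM in irises, 4149 ± 674 TPM in livers, 4027 ± 733 TPM in hepatocyte preparations, 4748 ± 1466 TPM in in vitro spheroids (n = 2) and 3089 ± 419 TPM in explants (n = 5).

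**Figure D1:**
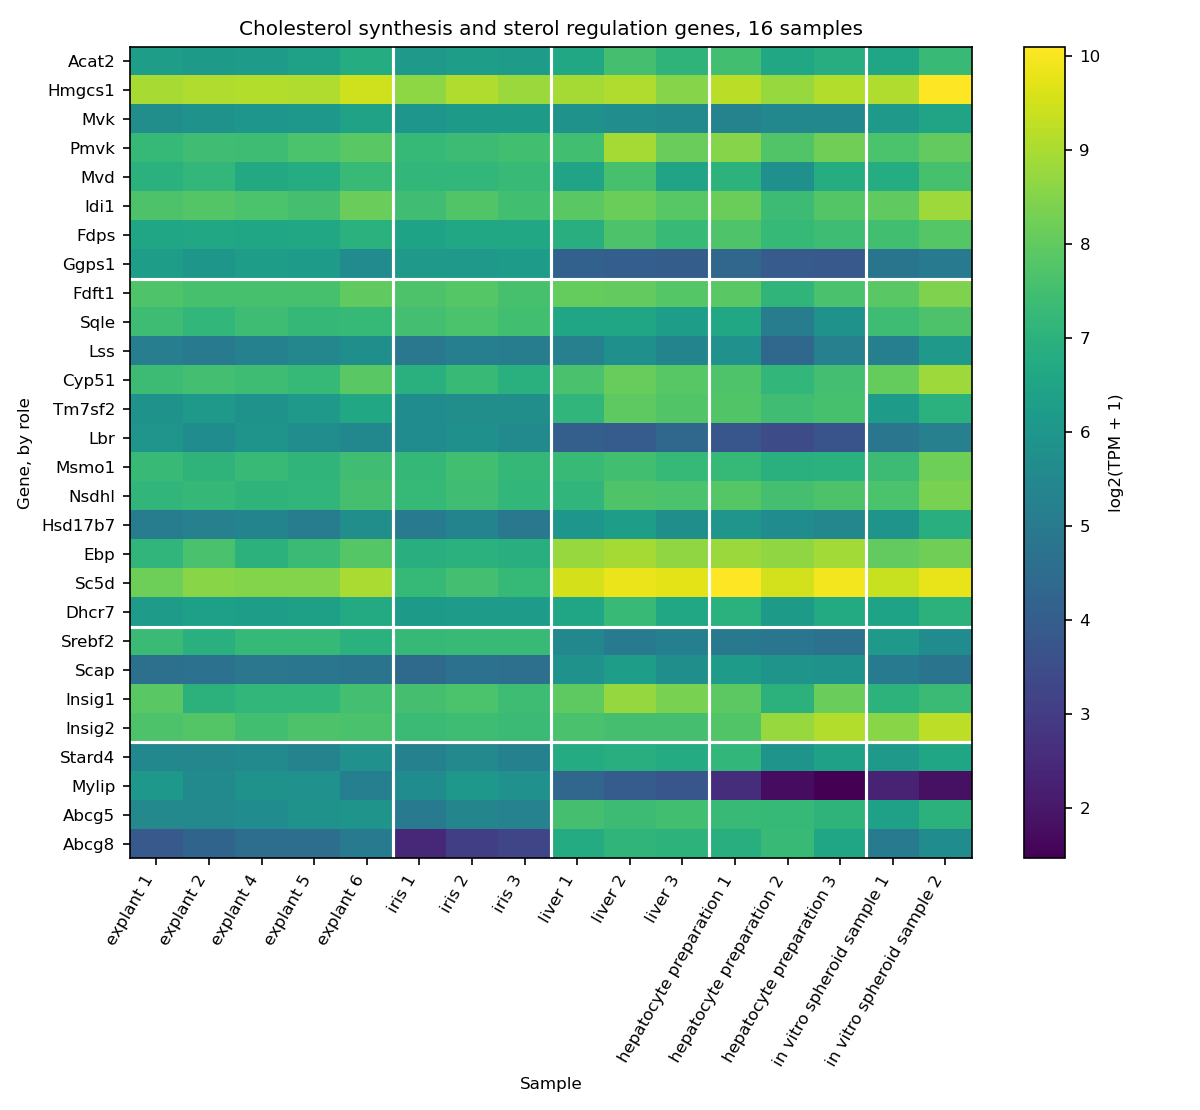
Levels of the 28 genes (rows, in order of their roles, separated by white lines) in the 16 samples (columns, by group), as log2(TPM + 1) by colour. Srebf2, Lbr and Ggps1 were at higher levels in irises and explants than in the hepatic samples, Sc5d, Ebp and Abcg8 at lower levels, and Mylip was lowest in hepatocyte preparations and in vitro spheroids.

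Livers and naïve irises were compared first, since both serve below to give the levels expected in an explant, which holds an engrafted spheroid and not liver tissue. Abcg8, encoding a subunit of the sterol exporter of the canalicular membrane, was at 108, 136 and 131 TPM in the livers and at 4.48, 7.36 and 8.74 TPM in the irises. Its partner gene Abcg5 was at 185, 164 and 177 TPM in livers and 32.5, 40.9 and 38.02 TPM in irises. Neither gene's groups overlapped. In counts scaled by TMM (a scaling that takes most genes as unchanged), Abcg8 was higher in livers by 5.08 ± 0.23 (log2 fold change ± SE, edgeR adjusted p = 1.43e-07) and Abcg5 by 3.13 ± 0.12 (adjusted p = 4.15e-08). Of the 28 members, 22 were higher in livers, where 34.5% of the 15459 genes tested were, and 4 were lower, against 39.1% of all genes.

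The scaling matters here: on library size alone the median of all genes moved down by 0.68 on the log2 scale, and 19 members were then higher and 5 lower. Over all genes, the share of calls that were higher went from 46.9% to 25.8%. Sc5d (3.26 by TMM, 2.58 by library size), Tm7sf2, the sterol C14-reductase gene (2.88, 2.19), Ebp (2.78, 2.09), the sterol transporter gene Stard4 (2.37, 1.69) and Scap (2.31, 1.63) were higher in livers under both scalings. Ggps1, encoding geranylgeranyl diphosphate synthase (-1.28, -1.96), Srebf2 (-1.16, -1.83), Mylip (-1.02, -1.70) and Lbr, the lamin B receptor with sterol C14-reductase activity (-0.71, -1.39), were lower under both. The call was lost on library size alone for Hmgcs1 (0.91 by TMM), the mevalonate kinase gene Mvk (0.50, turning to -0.18) and the methyl oxidase gene Msmo1 (0.91). It was gained for Sqle, encoding squalene epoxidase, which had -0.19 by TMM and -0.87 by library size.

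Few members passed the test between hepatocyte preparations and livers. Mylip was at 18.7, 14.7 and 12.7 TPM in livers and at 5.03, 2.34 and 1.76 TPM in hepatocyte preparations, where it rested on 22, 9 and 6 counts. It was the 1 member lower (-2.16 ± 0.38, edgeR adjusted p = 0.0354), where 2.84% of the 12236 genes tested were. The call did not hold without any 1 liver, without preparation 2 or without preparation 3, where the adjusted p reached 0.141. With edgeR, 0 members were higher (0.785% of all genes), 1 being so at an unadjusted p under 0.05 (10.6% of all genes), 1 with DESeq2 and 0 with limma-voom. Insig2 came nearest, at 195, 188 and 187 TPM in livers against 216, 429 and 552 TPM in the preparations (1.22 ± 0.31, adjusted p = 0.0664). Its groups did not overlap, with preparation 1 nearest to the livers. On library size alone the median of all genes moved by 0.11 on the log2 scale and the share of calls that were higher went from 21.7% to 10.5%, with the same counts of members. Markers of other cells were lower in the preparations. The 4 liver sinusoidal endothelial markers summed to 196 to 259 TPM in livers and 45.3 to 157 TPM in preparations, and the 5 macrophage markers to 204 to 559 TPM and 80.4 to 144 TPM. The part of such cells in the level of Mylip was not tested.

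In cultured spheroids the 2 genes for sterol C14-reductase moved in opposite directions. Lbr was at 28.1 and 36.7 TPM in the in vitro spheroids, 15.8, 14.6 and 19.3 TPM in livers and 12.6, 10.2 and 12.1 TPM in hepatocyte preparations, so that both spheroid samples lay above all 6 others. Tm7sf2 was at 72.9 and 123 TPM in spheroids, 139.6, 248 and 213 TPM in livers and 216, 174 and 192 TPM in preparations, with both spheroid samples below all 6. Against livers, Lbr rose by 0.85 ± 0.23 (edgeR adjusted p = 0.0284) and Tm7sf2 fell by 1.14 ± 0.35 on the log2 scale (adjusted p = 0.0402). Against hepatocyte preparations the changes were 1.16 ± 0.24 (adjusted p = 0.0113) and -1.28 ± 0.29 (adjusted p = 0.0174). The ratio of Lbr to Tm7sf2 in TPM was 0.386 and 0.297 in the spheroid samples and 0.0585 to 0.113 in the other 6 hepatic samples. In all, 4 of the 28 members were higher and 7 lower in spheroids than in livers, where 15% of the 12959 genes tested were higher and 15% lower. Against hepatocyte preparations 3 were higher and 4 lower, beside 12.5% and 13.4% of 12247 genes. On library size alone the median of all genes in that comparison moved up by 0.26 on the log2 scale, 5 members were higher and 4 lower, and the share of calls that were higher went from 48.2% to 70.1%. Of the exon bases, 15.3% in Tm7sf2 and 9.24% in Lbr overlap another gene, and reads there were counted for both genes. Both comparisons share the spheroid samples.

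**Figure D2:**
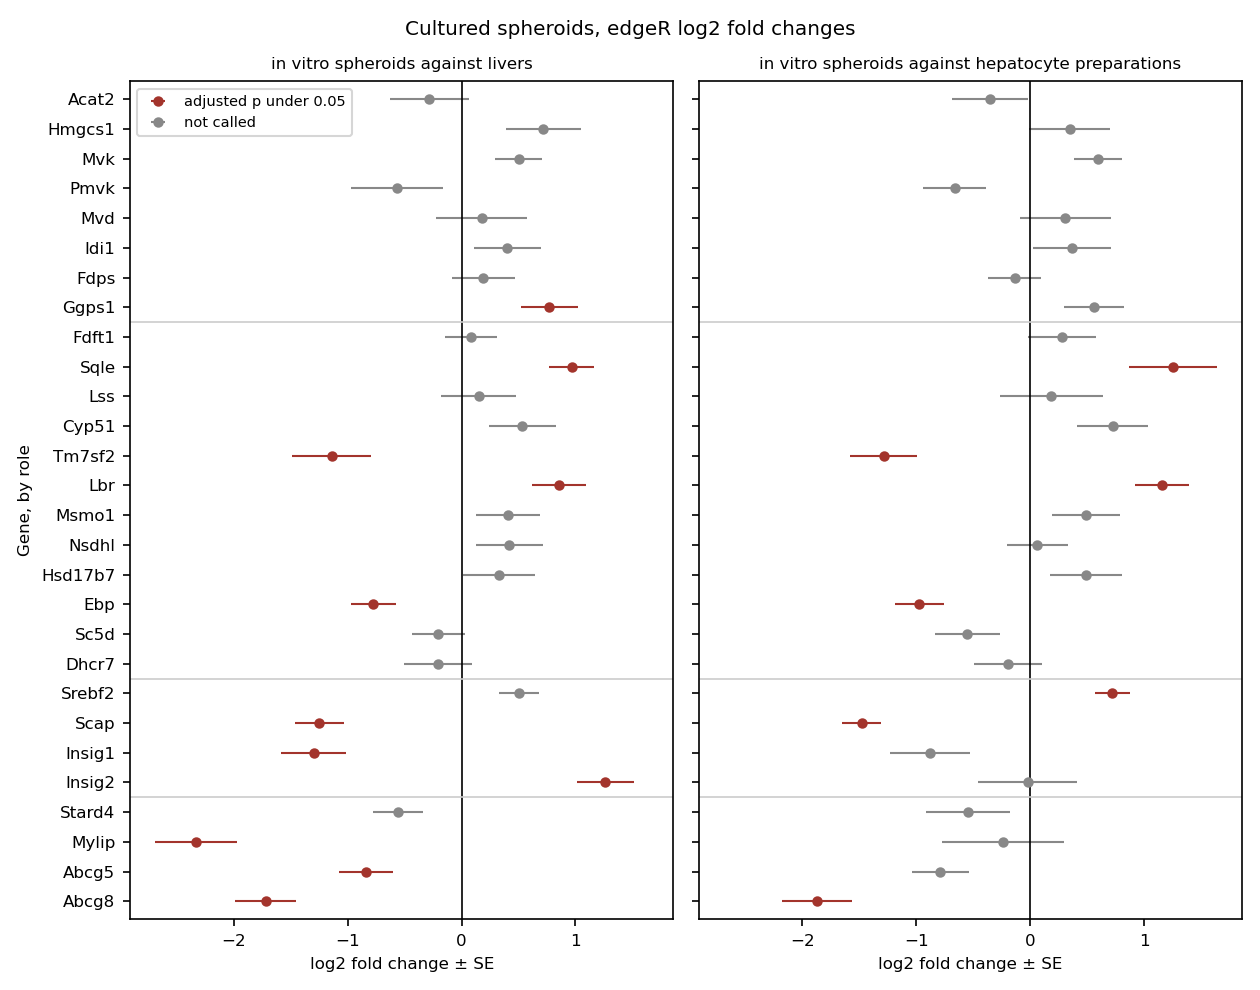
Log2 fold changes of the 28 genes (rows, by role) in in vitro spheroids against livers (left) and against hepatocyte preparations (right), as edgeR estimates with bars of 1 SE. Genes with an adjusted p under 0.05 are red: Abcg8, Scap, Tm7sf2 and Ebp lie left of 0 and Sqle and Lbr right of 0 in both panels.

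Of the other squalene and sterol steps, Sqle and Ebp were called in both comparisons. Sqle, a rate-limiting step at which squalene takes up oxygen, was at 169 and 205 TPM in spheroids, 93.6, 94.4 and 77.4 TPM in livers and 98.3, 33.8 and 57.2 TPM in preparations. It was higher by 0.97 ± 0.20 against livers (edgeR adjusted p = 0.0103) and by 1.25 ± 0.39 against preparations (adjusted p = 0.0493). Ebp was at 259.7 and 299.6 TPM in spheroids, 436, 485 and 402 TPM in livers and 439, 406 and 473 TPM in preparations. It was lower by -0.77 ± 0.20 (adjusted p = 0.0220) and -0.97 ± 0.21 (adjusted p = 0.0147). Neither gene's spheroid values overlapped the other hepatic samples. The other 8 genes of this stretch did not pass the test in either comparison, with log2 changes from -0.21 (Dhcr7) to 0.53 (Cyp51) against livers. Leaving out single samples ended several of these calls. Against livers, Lbr was lost without liver 1, liver 2 or spheroid sample 2 (adjusted p up to 0.230), Tm7sf2 and Ebp without liver 2, liver 3 or spheroid sample 1 (up to 0.188 and 0.0978) and Sqle without spheroid sample 2 (0.0706). Against preparations, Tm7sf2 was called each time, Lbr was lost without spheroid sample 2 (0.0704), Ebp without spheroid sample 1 (0.0524) and Sqle without either spheroid sample, preparation 2 or preparation 3 (up to 0.221).

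The regulators were also split. Scap was at 31.2 and 26.4 TPM in spheroids, 57.4, 76.7 and 53.2 TPM in livers and 73.7, 60.2 and 57.1 TPM in preparations. The groups did not overlap, and Scap fell by 1.25 ± 0.22 against livers (edgeR adjusted p = 0.00581) and by 1.48 ± 0.17 on the log2 scale against preparations (adjusted p = 0.00138), both with every single sample left out in turn. Srebf2, which encodes the cargo of SCAP, was at 66.9 and 49.0 TPM in spheroids, 44.1, 32.6 and 35.6 TPM in livers and 30.2, 27.6 and 25.4 TPM in preparations. It was higher than in preparations by 0.72 ± 0.15 (adjusted p = 0.0129), a call lost without preparation 3 or spheroid sample 1 (adjusted p up to 0.0600), and differed from livers by 0.50 ± 0.18 (adjusted p = 0.0650). Scap overlaps a gene on the other strand over 13.2% of its exon bases, and the counting did not use strand.

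The 2 retention factors moved apart between livers and spheroids. Insig1, itself a target of SREBP2, was at 246, 424 and 325 TPM in livers, 131 and 162 TPM in spheroids and 239, 128 and 279 TPM in preparations. Insig2 was at 372 and 604 TPM in spheroids, against the liver values given above. In spheroids Insig1 fell by 1.30 ± 0.29 on the log2 scale against livers (edgeR adjusted p = 0.0137), which did not hold without spheroid sample 1 (adjusted p = 0.0736). Insig2 rose by 1.26 ± 0.25 (adjusted p = 0.00933), with every single sample left out in turn. Against preparations neither passed the test, with -0.88 ± 0.35 (adjusted p = 0.105) for Insig1 and -0.02 ± 0.43 (adjusted p = 0.975) for Insig2. The ratio of Insig2 to Insig1 in TPM was 0.443 to 0.792 in livers, 0.902 to 3.35 in preparations and 2.84 and 3.72 in spheroids.

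**Figure D3:**
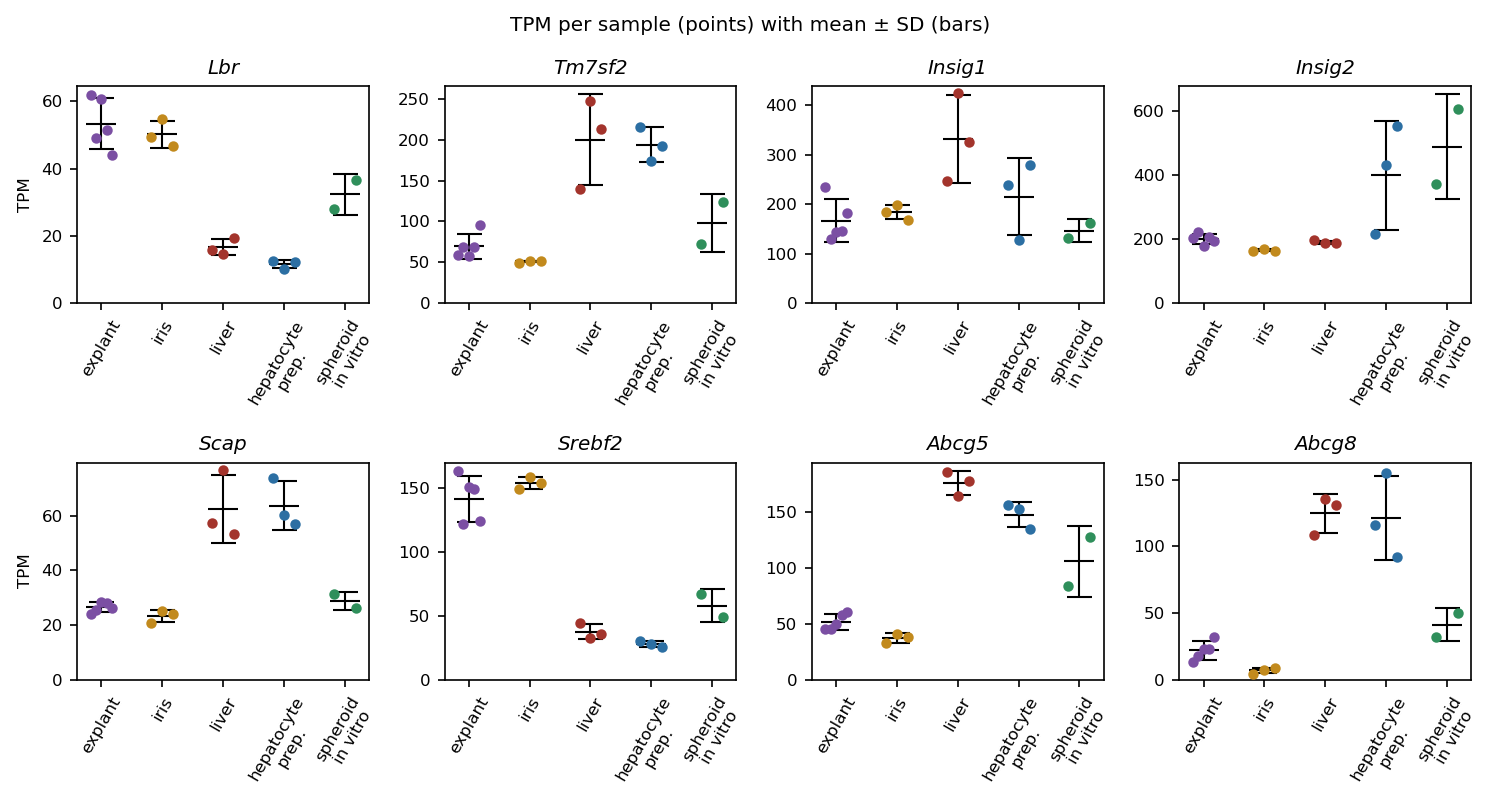
TPM of 8 genes in each sample (points, coloured by group) with the group mean and SD (bars), on axes that start at 0. In in vitro spheroids Lbr lay above and Tm7sf2, Scap and Abcg8 below all livers and hepatocyte preparations, while Insig2 lay above and Insig1 below the livers.

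Both subunit genes of the sterol exporter were lower in spheroids than in livers. Abcg8 was at 32.2 and 49.8 TPM in spheroids, against livers at 108 TPM or more and preparations at 116, 156 and 92.3 TPM. Abcg5 was at 83.3 and 128 TPM in spheroids and at 156, 152 and 134 TPM in preparations. Neither overlapped. Abcg8 fell by 1.72 ± 0.27 against livers (edgeR adjusted p = 0.00393) and by 1.87 ± 0.31 on the log2 scale against preparations (adjusted p = 0.00486), with every single sample left out in turn. Abcg5 fell by 0.84 ± 0.24 on the log2 scale against livers (adjusted p = 0.0318), which did not hold without liver 2, liver 3 or spheroid sample 1 (adjusted p up to 0.125), and had -0.79 ± 0.25 against preparations (adjusted p = 0.0510). The ratio of Abcg8 to Abcg5 was 0.387 and 0.390 in the spheroid samples and 0.585 to 1.02 in the other hepatic samples. The 2 genes share 82 exon bases on opposite strands, 3.02% of the exon bases of Abcg5, where reads cannot be told apart.

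Mylip was at 3.97 and 2.63 TPM in spheroids, from 16 and 10 counts. It did not pass the test against preparations (-0.24 ± 0.53, edgeR adjusted p = 0.768) and fell by 2.33 ± 0.36 on the log2 scale against livers (adjusted p = 0.00384). Stard4 was at 68.0 and 94.9 TPM in spheroids, 109, 116 and 109 TPM in livers and 145, 60.03 and 84.2 TPM in preparations, and did not pass the test against livers (-0.56 ± 0.22, adjusted p = 0.0879) or preparations (-0.55 ± 0.37, adjusted p = 0.315). The macrophage markers summed to 317 to 380 TPM in spheroids and the 4 Kupffer cell markers to 444 to 488 TPM, above the 192 to 352 TPM in livers, while the sinusoidal endothelial markers summed to 49.5 to 55.8 TPM. Their part in these changes was not tested.

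Among the 8 mevalonate and isoprenoid genes, Ggps1 was called against livers, at 26.98 and 30.9 TPM in spheroids and 15.04 to 16.5 TPM in livers (0.77 ± 0.25, edgeR adjusted p = 0.0488). This call held in only 2 of 13 alternative fits. It was lost when any 1 sample was left out, and with DESeq2, limma-voom, RLE scaling, no filter or the replicate block. The other 7 had log2 changes against livers from -0.57 (Pmvk) to 0.72 (Hmgcs1) with SE up to 0.40. The 2 spheroid samples also differed from each other. Hmgcs1 was at 538 TPM in the first and 1090 TPM in the second, and all 20 synthesis enzymes were higher in the second, by 1.15 times (Ggps1) to 2.02 times (Hmgcs1), with a median of 1.54. Of the 10932 genes with a mean of at least 10 TPM, 36.3% were higher in the second sample.

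The enzymes also stood high or low together in single samples of the other groups. Liver 2 was the highest liver for 16 of 20 enzymes, against 26.6% of all those genes, with Pmvk, the phosphomevalonate kinase gene, at 481 TPM beside 176 and 280 TPM in the other 2. Hepatocyte preparation 2 was lowest for 17 of 20 (30.1% of all genes), with Lss, the lanosterol synthase gene, at 19.6 TPM beside 55.3 and 36.8 TPM. Explant 6 was highest for 17 of 20 (20.7% of all genes). Among irises, iris 2 was highest for 15 of 20 (35.2% of all genes) and iris 1 lowest for 12 of 20 (31.8% of all genes). These counts describe single samples, and genes of 1 sample are not independent. The median log2 change of the 28 members was -0.07 between hepatocyte preparations and livers, 0.02 between spheroids and preparations and 0.16 between spheroids and livers, each beside 0.01 over all genes. In the last 2 comparisons it pooled genes that differed in direction. The 20 enzymes had medians of 0.29 and 0.26, and the 4 transport and LXR target genes (Stard4, Mylip, Abcg5 and Abcg8) had medians of -0.67 and -1.28.

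Explants were compared with naïve irises to find transcripts that the graft added. Sc5d was at 292, 379, 355, 358 and 509.8 TPM in explants 1, 2, 4, 5 and 6 and at 152, 182 and 151 TPM in irises. Abcg8 was at 13.5, 17.9, 22.9, 22.96 and 31.9 TPM in explants. All 5 explants exceeded all irises for both genes. Sc5d was higher by 1.34 ± 0.21 (edgeR adjusted p = 0.00346), with every single sample left out in turn, and Abcg8 by 1.78 ± 0.34 (adjusted p = 0.00968), which did not hold without iris 1 (adjusted p = 0.0581). Abcg5 (0.58 ± 0.16, adjusted p = 0.0409) and Insig2 (0.38 ± 0.09, adjusted p = 0.0293) were also higher, but each lost its call without explant 2, explant 5 or any 1 iris (adjusted p up to 0.183 and 0.123). The 4 members called higher stand beside 9.04% of 16764 genes. With edgeR 0 members were lower (2.74% of all genes), 1 being so at an unadjusted p under 0.05 (9.96% of all genes) and 0 with DESeq2 and limma-voom. On library size alone 4 were higher and 1 (Sqle) lower, and the share of all calls that were higher went from 76.7% to 60.6%.

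Since most of the module is expressed in iris, each explant was set against the level expected of a mixture of mean iris and mean liver, in the iris share that the deposited tables imply. That share was 82, 68, 81, 72 and 59% in explants 1, 2, 4, 5 and 6. Abcg8 was expected at 28.1, 44.7, 29.3, 39.9 and 55.3 TPM and Abcg5 at 62.1, 81.5, 63.5, 75.9 and 93.9 TPM. The measured values of Abcg5 were 45.4, 45.1, 49.7, 57.3 and 60.6 TPM. Every explant lay below expectation for both, by -0.83 ± 0.13 on the log2 scale for Abcg8 (limma adjusted p = 0.00519) and -0.53 ± 0.08 for Abcg5 (adjusted p = 0.00462). Ebp (-0.31 ± 0.06, adjusted p = 0.00907) and Stard4 (-0.37 ± 0.07, adjusted p = 0.0111) were lower too. Lbr was measured at 62.0, 49.0, 60.6, 51.4 and 43.99 TPM, above its expected 44.2, 39.4, 43.8, 40.8 and 36.4 TPM, and Insig2 at 203, 221, 178, 206 and 195 TPM, above its expected 170.0 to 176 TPM. Lbr was higher by 0.37 ± 0.05 (adjusted p = 0.00394) and Insig2 by 0.22 ± 0.05 (adjusted p = 0.0168).

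Thus 4 members were lower than in mixtures of iris and liver, beside 6.21% of 20210 genes, and 2 higher, beside 11%. A call also required each explant to lie on 1 side of the values expected from every single iris and liver. Tm7sf2 was below the mean expectation in all 5 explants (-0.41 ± 0.05, limma adjusted p = 0.00260), as was Scap (-0.35 ± 0.07, adjusted p = 0.0147), and Srebf2 above it (0.21 ± 0.05, adjusted p = 0.0147). Hmgcs1 (0.29, adjusted p = 0.0273), Ggps1 (0.28, adjusted p = 0.0215) and Insig1 (-0.46, adjusted p = 0.0408) also passed the limit on p. All 6 failed the second condition. These values cannot assign a change to the graft. Iris was expected to supply 81.4 to 93.2% of Lbr and 55.7 to 79.9% of Insig2 transcripts, but only 7.32 to 20.004% of Abcg8 and 23.3 to 49.1% of Abcg5 transcripts. Insig2 lost its call without explant 1 or explant 5 (adjusted p up to 0.0581). It turned to -0.19 when hepatocyte preparations stood in for livers. With the iris share taken from iris-specific genes (55.8 to 87.3%), Abcg8 had -0.60 (adjusted p = 0.0527), Abcg5 -0.40 (adjusted p = 0.0468) and Stard4 -0.30 (adjusted p = 0.0323), and none of the 3 was called. Abcg5 and Stard4 failed only the second condition there. So did Abcg8 (-0.80, adjusted p = 0.00547) and Stard4 (-0.27, adjusted p = 0.0247) with hepatocyte preparations in place of livers, and Ebp (-0.25, adjusted p = 0.0221) with the share fitted by non-negative least squares. After subtraction of the iris part, Abcg8 stood at 43.8, 41.3, 91.3, 64.4 and 67.9 TPM in the 5 explants, all below the lowest liver at 108 TPM, and Abcg5 at 61.9 to 109 TPM beside 164 to 185 TPM in livers.

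**Figure D4:**
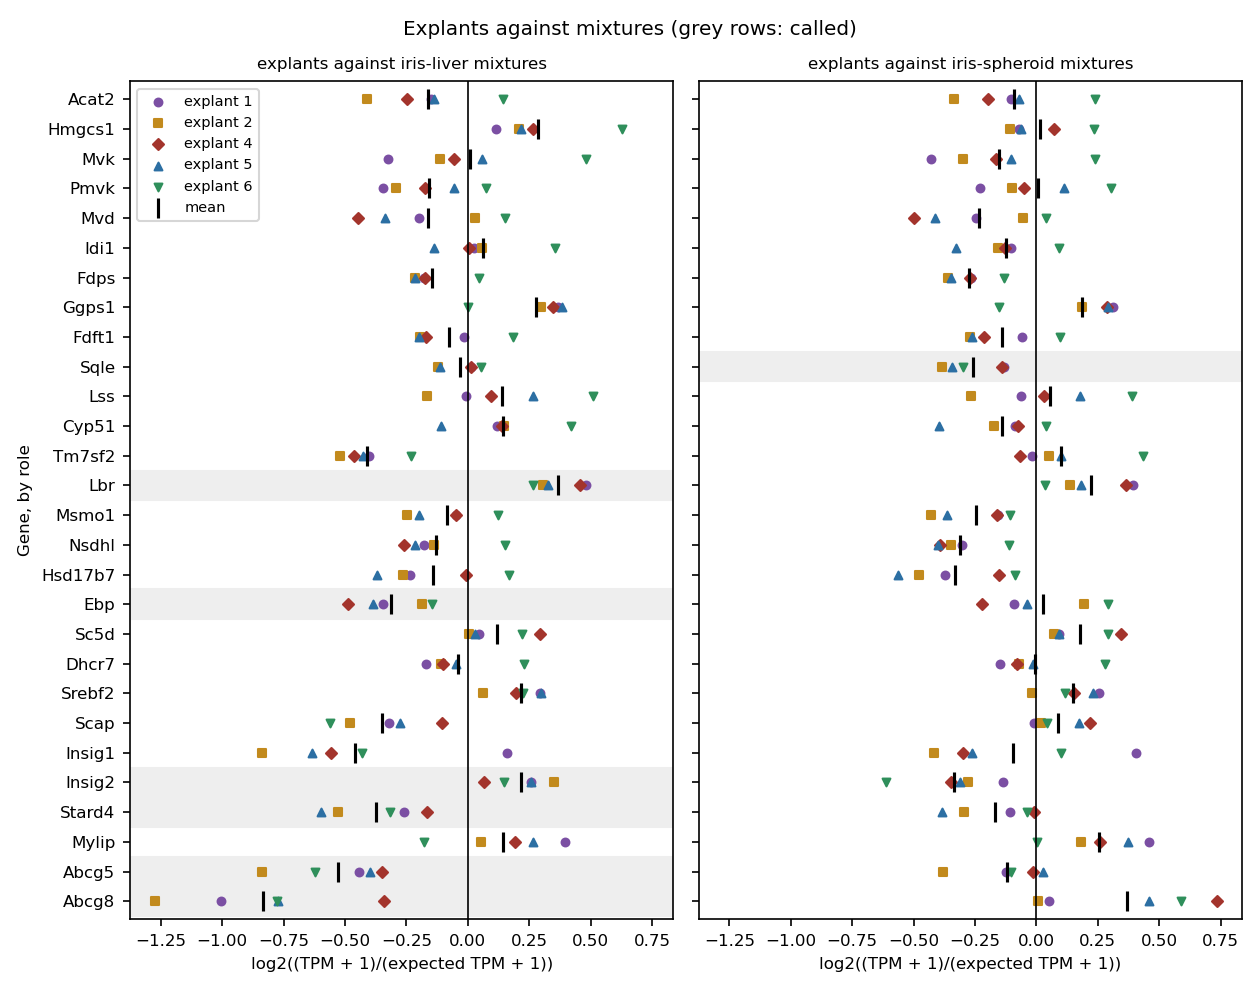
Log2 ratio of the measured to the expected level, each plus 1 TPM, for the 28 genes (rows, by role) in the 5 explants (coloured symbols) with their mean (black bar), against mixtures of iris with liver (left) and of iris with in vitro spheroids (right). Grey rows mark called genes. On the left, Abcg5 and Abcg8 lay left of 0 and Lbr right of 0 in all 5 explants, and on the right Abcg8 lay between 0.01 and 0.74.

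With in vitro spheroids in place of livers, expectation and measurement came closer for the exporters, with 0.37 ± 0.12 for Abcg8 (limma adjusted p = 0.0701) and -0.12 ± 0.07 for Abcg5 (adjusted p = 0.226). Sqle was the 1 member called lower, at 171, 143, 169.5, 147 and 152 TPM where 187 TPM was expected in each explant (-0.26 ± 0.05, adjusted p = 0.0132), beside 6.61% of 20267 genes. Irises and spheroids both had a mean of 187 TPM, so for Sqle this result cannot be told apart from explants against irises in TPM. In that contrast edgeR did not call Sqle with TMM (-0.16 ± 0.07, adjusted p = 0.163). On library size alone edgeR called it lower (-0.24, adjusted p = 0.0458). By limma 0 members were called higher (8.91% of all genes), 6 being so at an unadjusted p under 0.05 (21.7% of all genes). No other tool was run on mixtures. The spheroid samples decided much of this, since leaving out either moved the calls among members in number or direction. Such a fit holds 1 spheroid sample, so its counts are not given. Without explant 6, 2 members were called higher and 3 lower. The share over all genes is not given for that fit, so these counts describe it alone. Sqle kept its call without explant 6. The macrophage markers summed to 605 to 1402 TPM in explants, above 408 to 448 TPM in irises, and neither mixture holds such added cells. The 4 Kupffer cell markers summed to 3.97 to 59.8 TPM in explants, below 192 to 352 TPM in livers and 444 to 488 TPM in spheroids. The sinusoidal endothelial markers summed to 24.1 to 57.0 TPM in explants, 196 to 259 TPM in livers and 49.5 to 55.8 TPM in spheroids. A mixture holds only the hepatic share of such levels. The part of these cells in the differences was not tested.

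Genes around the pathway were read from 3 further lists. Of the 9 genes of SREBP processing and sterol-regulated degradation, 3 were higher and 2 lower in spheroids than in livers, where 15% of all genes were called in each direction, and the median log2 change was 0.14 beside 0.01 over all genes. Srebf1, encoding the related factor of fatty acid synthesis, was at 161 ± 16.99 TPM in livers and 66.5 ± 17.7 TPM in spheroids (-1.42 ± 0.21, edgeR adjusted p = 0.00338). In explants against mixtures of iris and liver, 1 of the 9 was higher (11% of all genes) and 3 were lower (6.21% of all genes), among them Srebf1 (-0.32 ± 0.06, limma adjusted p = 0.0102).

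Of the 18 genes tested for cholesterol uptake, storage, efflux and conversion, 1 was higher and 3 were lower in spheroids than in livers, beside 15% of all genes each way, with a median of -0.24 beside 0.01. Cyp39a1, an oxysterol hydroxylase gene, was at 644 ± 49.1 TPM in spheroids and 80.8 ± 43.8 TPM in livers (2.89 ± 0.37, edgeR adjusted p = 0.00202). Lcat, encoding the enzyme that esterifies cholesterol in plasma, was at 391 ± 64.8 and 867 ± 77.3 TPM (-1.26 ± 0.21, adjusted p = 0.00497), and the receptor genes Lrp1 (-2.64) and Scarb1 (-0.70) were lower. In explants, 8 of the 18 were higher than in irises (9.04% of all genes), including Soat2, the hepatocyte cholesterol esterification gene (4.20 ± 0.54, adjusted p = 0.00137), and Cyp7a1, the rate-limiting enzyme of bile acid synthesis (5.28 ± 0.80, adjusted p = 0.00332), each against a low iris level of 1.57 and 1.51 TPM. Cyp27a1, a sterol hydroxylase gene of bile acid synthesis, lay below mixtures of iris with liver (-0.83 ± 0.07, limma adjusted p = 0.000914) and with spheroids (-0.47 ± 0.07, adjusted p = 0.00699). Of the 10 genes of isoprenoid use, 3 were higher and 1 lower in spheroids than in livers (median 0.15 beside 0.01), again beside 15% of all genes each way, with Pggt1b, a protein prenylation gene, at 29.8 ± 2.41 and 8.83 ± 2.76 TPM (1.64 ± 0.32, adjusted p = 0.00859).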

How the data were processed

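Sequencing was bulk RNA-seq with Smart-seq3 chemistry, per the labels, on mm10. The tools the labels name are TopHat2, SAMtools and featureCounts. The deposited counts per gene were made by the authors with featureCounts 1.4.6-p5 after duplicate removal, over exons, without strand, and giving a read to each gene it overlaps (shared exon bases were counted here, and took 26.8% of Fdft1, with Ctsb, and 26.7% of Fdps). Duplicate removal can cap abundant transcripts, and the members reached at most 0.543 counts per base where any gene reached 1.70. The deposited TPM, made by the authors from counts and gene length, were used for levels. The authors' corrected table, a score in TPM-like units with an iris contribution subtracted, served only to solve the iris share (the column of explant 4 obeys a different formula from the methods).

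The 3 technical libraries of a sample were summed. Pairs of groups were compared by the quasi-likelihood test of edgeR 4.0.16 in R 4.3.3, with TMM scaling and its default filter on low counts. A call needed an adjusted p under 0.05, by the Benjamini-Hochberg method over all genes tested. The tests on log2((TPM + 1)/(expected TPM + 1)) used limma 3.58.1 with trend, on genes with a mean of at least 1 TPM over the samples used, and their p covers the spread between explants only. Both procedures were tested on simulated data. Alternatives were DESeq2 1.42.0, limma-voom, other scalings, filters and pseudocounts, other iris shares, a replicate block and leaving out each sample. The members, lists and named genes were chosen with earlier results of these data known. Not every gene of the further lists is reported by name here.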

Additional observations from a re-analysis of the deposited data

Results flagged for a closer look

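Among 84 sets of 5 values, the levels of the 28 genes in the 5 explants and their log2 ratios to both mixtures, 5 had a sample far from the other 4, where chance flags about 1 in 20. All 5 concerned explant 6, which had the lowest iris share. In that explant Hmgcs1 was at 709 TPM, where the other 4 lay between 495 and 551 TPM. Fdps, the farnesyl diphosphate synthase gene, was at 125 TPM, where the others lay between 93.9 and 99.6 TPM. The log2 ratio of Fdps to the mixture of iris and liver was 0.0453 in explant 6 and below 0 in the others. The log2 ratio of Ggps1 was -0.000677 against the mixture of iris and liver and -0.15 against that of iris and in vitro spheroids, and above 0 in the other 4 explants in both.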

How the results depend on the processing

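The number of members called moved by more than 1.5 times in the following settings. For explants against irises, 4 members were called, against 2 in a single model of all 5 groups, 2 with limma-voom, 2 with a log2 fold limit of 1 and 1 to 5 when single samples were left out. For hepatocyte preparations against livers, 1 was called, against 2 in the single model, 2 with DESeq2, 2 with no filter, 0 with limma-voom and 0 to 2 without single samples. Over all genes that comparison gave 96 higher and 347 lower calls, against 942 and 1309 in the single model, 284 and 637 with DESeq2, 466 and 1257 with no filter and 10 and 11 with limma-voom. For spheroids against preparations, 7 became 12 with no filter, and 5 to 9 without single samples. Where calls over all genes are not given beside a setting, its counts do not show that members moved more than other genes. For spheroids against livers, 11 became 6 with the fold limit and 6 to 11 without single samples, and over all genes 1950 higher and 1944 lower calls became 1068 and 1424 with the fold limit. For mixtures of iris and liver, 6 became 12 on the adjusted p alone, 3 with iris-specific genes and 5 to 8 without single samples. For mixtures of iris and spheroids, 1 became 9 on the adjusted p alone and 2 with iris-specific genes. It also moved when single samples were left out, which leaves 1 spheroid sample in some fits. On the adjusted p alone, calls over all genes went from 2222 higher and 1255 lower to 3649 and 2569 with liver, and from 1805 and 1340 to 2805 and 2331 with spheroids. Livers against irises stayed at 26 to 27 without single samples. The direction turned for Mvk between livers and irises on library size alone (-0.18) and for Insig2 in explants with hepatocyte preparations in place of livers (-0.19). The cause of these changes was not tested. Depth limits Mylip most, with 6 counts in 1 sample.

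With the replicate number as a block (replicate block), 2 members were called between explants and irises, and 889 genes were higher and 80 lower where 1515 and 460 had been. The same samples without the block, a setting chosen after seeing the data, gave 1 member there and 7 between spheroids and livers. Correlations between the deviations of same-numbered samples were -0.03 to 0.20. The labels do not say what a shared number marks, and the samples were not treated as pairs.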
